A study of Mus musculus with 10 samples.

Results

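The heterogeneous nuclear ribonucleoproteins (hnRNPs) and the serine/arginine-rich (SR) proteins are described here in whole mouse hippocampus. Samples were taken 2 weeks after the last light procedure, given with Visudyne to ablate meningeal lymphatic vessels or with vehicle as a control. All protein-coding genes whose symbol starts with Hnrnp, or is Srsf followed by a number, were taken: 20 hnRNP genes and 11 SR genes, 31 of the 28871 genes in the deposited table. Within the families the genes were chosen by symbol alone. The families themselves were selected on earlier results of these data, among them the low values of Hnrnpul1 in Visudyne samples. All 31 genes passed the filter on low counts, and the smallest single value of any of them was 357 counts.

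The samples were total RNA of the hippocampus of male wild type C57BL/6J mice, 2 months old. The treated group received Visudyne, a formulation of the photosensitizer verteporfin, into the cisterna magna, and red light of 689 nm was then applied over the intact skull. The control group received vehicle and the same light, and in both groups the procedure was repeated after 2 weeks. There were 5 Visudyne samples (numbers 3, 6, 9, 12 and 15) and 5 vehicle samples (1, 4, 7, 10 and 13), with 51165271 to 68895223 counts each. Markers of neurons (8 of 8) and of hippocampal fields (8 of 8) were detected in every sample. The labels do not say that each sample was a single animal, so p-values measure only the spread between these samples.

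Both protein families bind newly made RNA in the nucleus and steer which exons are kept. SR proteins carry RNA recognition motifs and a domain rich in arginine and serine, and many of them promote the use of exons and recruit the splicing machinery. hnRNPs coat nascent RNA, and several oppose SR proteins at nearby sites. In neurons both families also take part in RNA export, stability and transport. Many SR and hnRNP genes limit their own expression by splicing in an exon with a premature stop or by keeping an intron, and such transcripts are degraded or stay in the nucleus. The counts used here are per gene and do not separate these forms.

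Transcripts of both kinds are annotated (GENCODE M21) in both families. Of the 11 SR genes, 9 had an annotated transcript of the nonsense-mediated decay class, as did 10 of the 20 hnRNP genes and 26.2% of all 15559 protein-coding genes tested. Transcripts with a retained intron were annotated for 8 SR genes and 14 hnRNP genes, against 53.8% of protein-coding genes. Among the 9546 tested genes within the members' range of abundance, 29.1% had a transcript of the decay class and 60.3% one with a retained intron. The median number of annotated transcripts was 8 in hnRNP genes and 7 in SR genes, against 5 in protein-coding genes tested. Its part in these shares was not tested. RefSeq promoters (GRCm38.p6, 250 bases before to 50 after a start) were found for 29 of the 31 genes, not for Hnrnpll and Hnrnpul2. The median promoter held 28 CpG dinucleotides in the hnRNP family and 35 in the SR family, against 7 over all 32851 promoters. The promoters of 4 genes that differ in how they vary between samples are shown. Hnrnph3 (chr10:63023800-63024099, minus strand) and Srsf11 (chr3:158036557-158036856, minus strand) varied with the nuclear RNA Malat1. Hnrnpk (chr13:58402068-58402367, minus strand) and Srsf3 (chr17:29032410-29032709, plus strand) varied in the opposite direction. Capitals mark exact matches, on either strand, to the letters of the motifs described after the sequences.
Hnrnph3: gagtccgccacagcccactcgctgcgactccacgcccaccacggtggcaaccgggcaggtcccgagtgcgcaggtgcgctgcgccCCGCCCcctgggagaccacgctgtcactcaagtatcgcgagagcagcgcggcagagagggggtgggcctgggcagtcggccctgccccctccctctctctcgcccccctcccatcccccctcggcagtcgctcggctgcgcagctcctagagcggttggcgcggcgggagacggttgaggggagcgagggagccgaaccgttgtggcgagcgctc
Srsf11: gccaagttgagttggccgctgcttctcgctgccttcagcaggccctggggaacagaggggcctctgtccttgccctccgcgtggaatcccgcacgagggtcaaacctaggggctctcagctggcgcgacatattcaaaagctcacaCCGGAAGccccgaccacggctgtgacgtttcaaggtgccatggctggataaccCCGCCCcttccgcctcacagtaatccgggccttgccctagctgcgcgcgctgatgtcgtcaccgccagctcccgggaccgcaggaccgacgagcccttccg
Hnrnpk: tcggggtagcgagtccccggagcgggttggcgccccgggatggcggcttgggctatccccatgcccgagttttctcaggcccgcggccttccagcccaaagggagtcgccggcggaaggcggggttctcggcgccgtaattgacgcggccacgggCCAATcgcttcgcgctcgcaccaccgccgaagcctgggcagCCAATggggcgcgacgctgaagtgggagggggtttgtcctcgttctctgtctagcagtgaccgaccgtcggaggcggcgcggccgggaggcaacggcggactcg
Srsf3: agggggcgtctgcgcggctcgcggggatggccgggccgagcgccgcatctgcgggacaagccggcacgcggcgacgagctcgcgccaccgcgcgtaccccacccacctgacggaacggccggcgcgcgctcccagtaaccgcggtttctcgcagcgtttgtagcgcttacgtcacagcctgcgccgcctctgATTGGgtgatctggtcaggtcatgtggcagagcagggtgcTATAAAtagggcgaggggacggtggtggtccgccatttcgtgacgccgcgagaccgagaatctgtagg
The GC box letters GGGCGG stood in 21 of 27 hnRNP promoters and 13 of 14 SR promoters, against 35.7% of all promoters. The promoters of both families were also richer in G and C, with medians of 66.3% (hnRNP) and 69% (SR) against 52.7%. The part of this base composition in the motif shares was not tested. CCAAT stood in 17 hnRNP and 4 SR promoters (37.4% of all), and CCGGAAG, a core bound by ETS factors, in 4 and 6 (8.86% of all). TATAAA stood in 2 and 2 (13.6% of all), the palindromic NRF1 site in 0 and 1 (0.971% of all), and TGACGTCA, the cAMP response element, in 0 and 0 (1.79% of all). None of these motifs contains another, though neighbouring matches can share bases, and a match of letters is not a bound site. The 41 promoters belong to 29 genes, so they are not independent.

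The 2 families overlapped widely in level, and Hnrnpk and Srsf5 were the highest. Levels between genes were compared as counts per kilobase of mean protein-coding transcript, scaled to the same total over all protein-coding genes in each sample. On that scale Hnrnpk, a KH-domain protein that binds C-rich RNA, measured 676 ± 23.3 in vehicle samples (SD, n = 5). Second was Srsf5 at 311 ± 35.0, an SR protein whose RNA responds to growth and hormone signals. The median over the family was 121 for hnRNP genes and 103 for SR genes, against 20.3 for all tested protein-coding genes. The SR median was 67.5 when the union of all exons was taken as gene length.

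Below these came Hnrnpl, which binds CA repeats, at 196 ± 16.0, and Hnrnpc, which binds uridine tracts, at 178 ± 13.5. The next 6 in order, from Hnrnpa3 (157 ± 17.5) through Srsf2 (155 ± 11.7), Hnrnph1 (151 ± 16.5), Hnrnpdl (149 ± 13.6) and Srsf1 (143 ± 7.17) to Hnrnpf (143 ± 4.0), differed from their neighbours by less than their SD. Srsf2 and Srsf1 are the classical splicing factors SC35 and ASF/SF2. Then came Hnrnpab (132), Hnrnpu (132), Srsf3 (130), Hnrnph2 (124), Srsf11 (119) and Hnrnpa1 (117), with Srsf7 (103), Hnrnpd (90.6), Srsf6 (84.4), Hnrnpm (78.7), Hnrnpa0 (74.4) and Hnrnpr (71.8) after them. In this stretch only the steps below Srsf3, Hnrnpa1, Srsf7 and Hnrnpr were larger than the larger SD of the neighbours. Srsf10 (56.4), Hnrnpa2b1 (52.8), Hnrnpul1 (51.1) and Hnrnpll (49.6) lay within 1 SD of each other in turn. The lowest levels were those of Hnrnph3 (14.6 ± 2.82), Srsf4 (29.1 ± 3.90), Srsf12 (34.5 ± 1.54) and Srsf9 (45.1 ± 6.87). Hnrnpul2 (46.7 ± 4.43) followed them. Transcript length decided some of these places. Hnrnpu, a scaffold protein of chromatin and RNA, had about as many counts as Hnrnpk (321 ± 24.1 against 322 ± 19.7 CPM) but a length-scaled level of 132 ± 13.1. CPM here and below are counts scaled by library totals adjusted with edgeR's TMM factors, with no regard to length. With the union of all exons, or the longest coding transcript, as gene length, Hnrnpk (297 and 474) and Srsf5 (225 and 418) still came first and second, but closer together, and Hnrnph3 (14.9 and 15.6) stayed last.

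**Figure D1:**
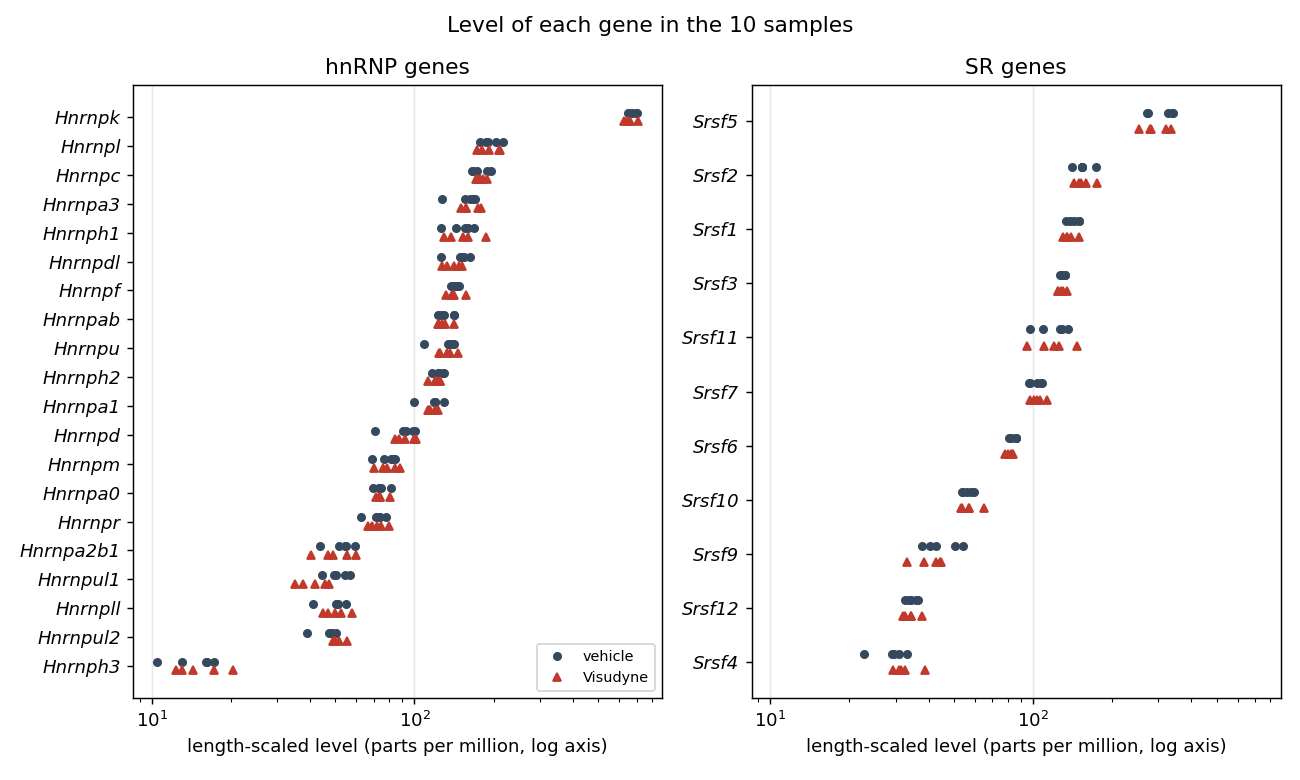
Length-scaled level (log axis) of the 20 hnRNP genes (left) and 11 SR genes (right) in each sample, vehicle as circles and Visudyne as triangles. Hnrnpk lies highest at 676 on average in vehicle samples and Hnrnph3 lowest at 14.6, and the triangles and circles of a gene lie close together.

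Some of these genes share sequence with other genes, and reads from it could be assigned to either. A stretch of Hnrnpm, equal to 22.3% of its 31-base words, also belongs to March2, which overlaps it on the same strand and had a median of 2212.5 counts against 2617.5 for Hnrnpm. Hnrnpa1 shared 47.9% of its words with the pseudogene Gm10052, whose median was 88.5 counts against 3654. Hnrnph3 overlaps Rufy2 on the opposite strand (median 2562.5 counts against 440.5). The library kit was stranded, but how strand was used in counting is not given in the sources used here, so the values of Hnrnph3 and Hnrnpm are less certain than the others.

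Between treatments no member of either family passed the test. Of 19093 genes tested with edgeR, 0.021% passed at an adjusted p under 0.05 in either direction (4 higher and 0 lower), and of the 31 members 0 were higher and 0 lower. DESeq2 and limma voom also called 0 members. At an unadjusted p under 0.05 there was 1 member, Hnrnpul1, which was lower. Of all genes 1.7% were under this limit in either direction, and 0.56% were lower. Because the families were chosen with this comparison known, these values are a description and nothing is read from them. Samples are bulk tissue, in which fewer cells of a type and less RNA per cell cannot be told apart. The summed CPM of 8 meningeal fibroblast markers was 53.1 to 120 in vehicle and 124 to 159 in Visudyne samples, none at 0 in any sample, and mitochondrial ribosomal RNA took 20.3 ± 1.21% and 18.8 ± 0.956% of counts (exact two-sided permutation p = 0.0635, n = 5 each). The part of both in the values below was not tested.

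Most members had slightly negative differences. In the hnRNP family 16 of 20 log2 fold changes (Visudyne minus vehicle) were negative, with a median of -0.02, and in the SR family 10 of 11, with a median of -0.04. Over all tested genes 48.9% were negative and the median was 0.0022. Among the 9546 genes within the members' range of abundance 62.0% were negative, with a median of -0.01. The 95% intervals of all 31 members together ran from -0.52 to 0.34, so that a doubling or a halving lay outside the interval of each.

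Hnrnpul1, an hnRNP U-like protein linked to DNA damage signalling, had the most negative log2 fold change of the members, -0.33 (SE 0.09). It measured 47.1, 47.8, 50.8, 40.0 and 41.9 CPM in vehicle samples 1, 4, 7, 10 and 13. In Visudyne samples 3, 6, 9, 12 and 15 it measured 37.8, 38.9, 41.8, 32.2 and 30.8 CPM. Visudyne 12 and 15 were lowest, and Visudyne 9 exceeded vehicle 10, so that the groups overlapped. Its paralog Hnrnpul2, by contrast, had the most positive value in the family, 0.10 (SE 0.05), with means of 76.1 ± 5.33 CPM and 81.7 ± 3.08 CPM in the vehicle and Visudyne groups (edgeR adjusted p = 0.9999). Vehicle samples measured 67.2, 80.8, 77.3, 79.4 and 75.6 CPM and Visudyne samples 82.5, 76.2, 83.1, 83.4 and 83.3 CPM, so that 4 of 5 Visudyne samples exceeded every vehicle sample and Visudyne 6 did not.

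Other hnRNP genes differed less than Hnrnpul1. Hnrnpdl, a relative of the AU-rich element binder Hnrnpd, measured 109, 124, 133, 122 and 118 CPM in the vehicle group and 110.4, 118, 119, 108 and 106 CPM in the Visudyne group (-0.11, SE 0.06). Hnrnpa2b1, which binds RNAs carried into dendrites and exosomes, measured 21.2, 24.7, 23.7, 27.7 and 24.1 CPM in vehicle samples. Its Visudyne values were 21.9, 26.3, 22.3, 19.2 and 23.4 CPM (-0.10, SE 0.09). In both genes the groups overlapped. Among the most abundant genes, Hnrnpk had a log2 fold change of -0.06 (95% interval -0.20 to 0.08). Hnrnpl measured 112, 121, 114, 113 and 125 CPM in the vehicle group and 110.3, 121, 114, 107 and 117 CPM in the Visudyne group, a log2 fold change of -0.04 (95% interval -0.14 to 0.06). Hnrnpc measured 106, 95.8, 114, 111 and 92 CPM and 105, 96.7, 105, 114 and 91.5 CPM, a log2 fold change of -0.02 (95% interval -0.18 to 0.14). Every one of these genes had overlapping groups. The remaining hnRNP genes (Hnrnpa0, Hnrnpa1, Hnrnpa3, Hnrnpab, Hnrnpd, Hnrnpf, Hnrnph1, Hnrnph2, Hnrnph3, Hnrnpll, Hnrnpm, Hnrnpr and Hnrnpu) had log2 fold changes between -0.06 (Hnrnph2) and 0.06 (Hnrnph3).

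Srsf1 was the 1 member of both families whose groups did not overlap in CPM. Vehicle samples measured 142.8, 141.9, 151.7, 140.9 and 144.7 CPM, and Visudyne samples 134.1, 130.1, 138.9, 140.5 and 138.8 CPM. The highest Visudyne sample (number 12) lay just under the lowest vehicle sample (number 10). The log2 fold change was -0.08 (SE 0.04, edgeR adjusted p = 0.9999). On the length-scaled level, which is scaled to another total, the groups overlapped, at 133.8 to 150.0 in vehicle and 130.5 to 149.4 in Visudyne samples. Over all genes, 0.115% had all Visudyne samples below all vehicle samples and 0.319% had them all above, as 0 members did.

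Srsf9, an SR protein with a short arginine and serine domain, had the most negative value of the family, -0.18 (SE 0.10), with overlapping groups. It measured 13.9, 11.4, 15.5, 12.5 and 15.9 CPM in the vehicle group and 12.1, 13, 13.5, 10.5 and 12.1 CPM in the Visudyne group. Srsf4, a large SR protein also known as SRp75, had the single positive value, 0.14 (SE 0.08). Its vehicle values were 17.3, 21.8, 21.4, 21.2 and 22.8 CPM and its Visudyne values 21.4, 21.7, 23.2, 23 and 25.6 CPM. Vehicle 1 was lowest and Visudyne 15 highest. Srsf6, also called SRp55, measured 55.1, 54.3, 55.7, 53.7 and 52.9 CPM in the vehicle group and 51.2, 51.5, 53.3, 53.5 and 48.8 CPM in the Visudyne group (-0.07, SE 0.04). Visudyne 9 and 12 fell within the vehicle range and the other 3 Visudyne samples below it.

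Srsf5 measured 139, 162, 158, 132 and 156 CPM in the vehicle group and 137, 155, 133, 126 and 142 CPM in the Visudyne group (-0.11, SE 0.07). Srsf2 measured 76.3, 77.3, 78.7, 79.9 and 84.9 CPM and 74.7, 78.5, 77.3, 79.5 and 82.8 CPM (-0.02, SE 0.04). Srsf12, the family member with the fewest counts after Srsf9, measured 21.4, 19.1, 21.5, 22 and 19.6 CPM and 19.8, 19.7, 19, 23.5 and 19 CPM (-0.04, SE 0.07). In these 3 genes the groups overlapped. Log2 fold changes of Srsf2, Srsf3, Srsf7, Srsf10, Srsf11 and Srsf12 lay between -0.05 (Srsf3) and -0.0051 (Srsf7), and the 95% interval of Srsf7 was -0.11 to 0.10.

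**Figure D2:**
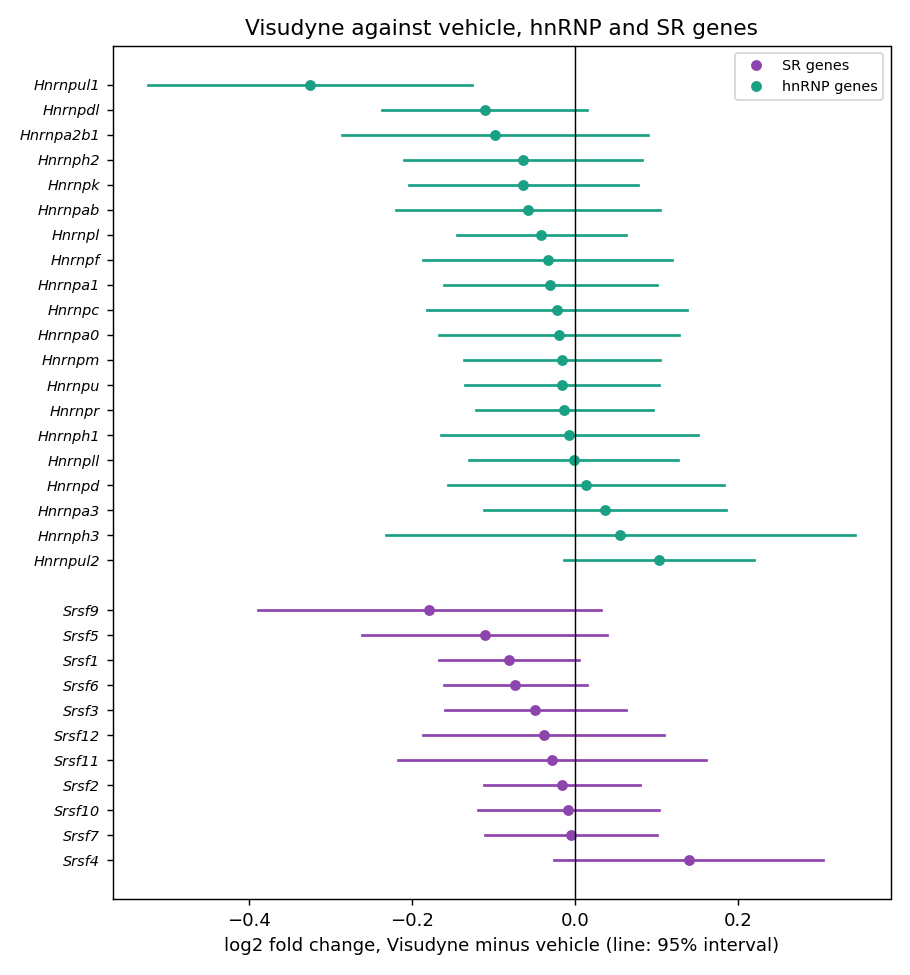
Log2 fold change of each hnRNP and SR gene, Visudyne minus vehicle, with its 95% interval from edgeR (points and lines, 5 samples per group). Most points lie slightly left of 0, from -0.33 for Hnrnpul1 to 0.14 for Srsf4.

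As families, hnRNP and SR genes kept nearly the same balance in the 2 treatments. hnRNP genes took 0.195 ± 0.0102% of all counts in vehicle and 0.196 ± 0.0058% in Visudyne samples. SR genes took 0.0755 ± 0.0038% and 0.0751 ± 0.0039%. The ratio of summed SR to summed hnRNP levels, which does not depend on library scaling, was 0.451 ± 0.0231 in vehicle and 0.445 ± 0.0218 in Visudyne samples. By sample it was 0.446, 0.458, 0.446, 0.420 and 0.484 in vehicle 1, 4, 7, 10 and 13. In Visudyne 3, 6, 9, 12 and 15 it was 0.437, 0.460, 0.434, 0.421 and 0.475. The groups overlapped, and the ratio varied more within each group than between them.

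That variation within the groups was larger for some members than for others. The SD of log2 CPM within groups had a median of 0.11 for hnRNP genes and 0.08 for SR genes, against 0.10 for genes within the same range of abundance. Srsf6 (0.04) and Srsf1 (0.04) were steadiest, and Hnrnph3 (0.24), Srsf9 (0.17), Hnrnpul1 (0.17) and Srsf11 (0.16) varied most. Hnrnph3, a relative of the G-tract binder Hnrnph1, measured 5.96, 8.54, 8.72, 7.06 and 8.89 CPM in vehicle samples and 7.15, 8.9, 7.66, 6.89 and 10.1 CPM in Visudyne samples. Srsf11, an SR-related protein known to promote neuronal microexons, measured 56.9, 70.2, 70.0, 61.1 and 71.5 CPM in the vehicle group and 62.1, 66.6, 65.6, 54.3 and 74.7 CPM in the Visudyne group. Both were lowest in vehicle 1 and Visudyne 12 and highest in Visudyne 15 and vehicle 13 of their groups.

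A similar order of samples was seen in Malat1, a long noncoding RNA of nuclear speckles, the bodies in which SR proteins gather. Malat1 measured 2017, 4517, 4407, 3212 and 5340 CPM in vehicle 1, 4, 7, 10 and 13, and 3143, 4484, 3933, 2127 and 6334 CPM in Visudyne 3, 6, 9, 12 and 15. It therefore differed 3.14-fold between samples but not between treatments beyond that spread (exact two-sided permutation p = 0.929, n = 5 each). Each gene was then fitted with edgeR on log2 Malat1 CPM with the treatment as a further term. The slope is the log2 change of a gene per doubling of Malat1. This comparison was chosen after the values were seen, so the adjusted p-values of the slopes are a description. That holds above all for Hnrnph3 and Srsf11, whose order of samples resembled that of Malat1. Over all 19092 genes, 42.4% had a slope with an adjusted p under 0.05 (22.1% positive and 20.3% negative), and 45.7% of those within the members' range of abundance did (10.9% positive and 34.8% negative). Of the 31 members 15 did, 7 with a positive and 8 with a negative slope. In total this share was near both backgrounds. Positive slopes were more frequent and negative ones less frequent than among genes within the members' range of abundance. The positive share was near that over all genes. The median length-scaled level of the genes within the range was 42.7, against 117 for the members. Whether the split differed from either background was not tested, and it moved with the scaling, as given below.

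The members that rose with Malat1 were 4 hnRNP and 3 SR genes. The steepest was Hnrnph3 (slope 0.40, SE 0.05, edgeR adjusted p = 0.000273), followed by Srsf11 (0.27, SE 0.03, 6.2e-05) and Hnrnph1 (0.21, SE 0.03, 0.000219). Hnrnph1 measured 96, 110.0, 115, 104 and 116 CPM in the vehicle group and 101, 109.8, 108, 96.4 and 124 CPM in the Visudyne group, lowest in vehicle 1 and Visudyne 12 and highest in vehicle 13 and Visudyne 15. Srsf4 (0.17), Hnrnpll (0.15), a relative of Hnrnpl, Srsf5 (0.15) and Hnrnpl (0.10) had smaller slopes. Rufy2, which overlaps Hnrnph3 on the opposite strand, had a slope of 0.22 (SE 0.03), and its part in the value of Hnrnph3 was not tested. Retained-intron transcripts were annotated for 6 of these 7 genes, for 3 of the 8 genes that fell and for 13 of the 16 others.

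The members that fell as Malat1 rose were 6 hnRNP and 2 SR genes. They were Hnrnpf (-0.19, SE 0.04), which binds G tracts as Hnrnph1 does, Hnrnpab (-0.18, SE 0.05), Hnrnpa0 (-0.17, SE 0.04), Hnrnph2 (-0.17, SE 0.04), Hnrnpk (-0.17, SE 0.03) and Hnrnpc (-0.16, SE 0.05), with Srsf12 (-0.15, SE 0.05) and Srsf3 (-0.12, SE 0.03). Hnrnpk measured 338, 307, 332, 338 and 295 CPM in the vehicle group and 311, 296, 311, 348 and 275 CPM in the Visudyne group, highest in Visudyne 12 and lowest in Visudyne 15. Hnrnpf measured 72.2, 62.5, 67.4, 66.4 and 62.4 CPM and 65.6, 58.6, 64.8, 75.2 and 59.1 CPM in the same order, highest in vehicle 1 and Visudyne 12. Srsf3, a small SR protein that also acts in RNA export, measured 114, 104, 109, 111 and 105 CPM and 106, 103, 102, 116 and 97.6 CPM, again highest in these samples. Members of the closely related H and F group thus had slopes of both signs: Hnrnph3 and Hnrnph1 rose, and Hnrnph2 and Hnrnpf fell. The slopes of the other 16 members, 10 hnRNP and 6 SR genes, did not pass. Among these, Hnrnpa2b1 (0.16), Srsf9 (0.11), Hnrnpu (0.10) and Hnrnpd (0.09) had the largest values. The others lay between -0.05 (Srsf6) and 0.07 (Hnrnpdl), with Hnrnpul1 at -0.0050 (SE 0.09) and Srsf1 at 0.0030 (SE 0.03).

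Which members fell depended on the scaling and on single samples. The counts of 7 rising and 8 falling members became 10 and 4 with upper-quartile factors, and 14 and 1 when library totals alone were used, and Hnrnpf was the member still falling there. Over all genes the same 2 settings gave 5014 rising and 2066 falling, and 5451 and 1260. The number of falling members was 4 without Visudyne 12 and 5 without Visudyne 15. Over all genes the falling slopes numbered 2537 and 2252 in these 2 settings, against 3878 with all samples. Without the 2 samples farthest from the median of Malat1, vehicle 1 and Visudyne 12, 3 members rose (Hnrnph1, Hnrnph3 and Srsf11) and 2 fell (Hnrnph2 and Hnrnpk). Over all genes 2304 then rose and 1402 fell, against 4216 and 3878 with all samples. The slopes were not particular to Malat1. With the long noncoding RNA Meg3 in its place 6 members rose and 8 fell, and with Neat1 also 6 and 8. All 14 members called in each case kept the direction they had with Malat1. Both RNAs, like Malat1, were lowest in vehicle 1 and Visudyne 12 and highest in Visudyne 15. There Meg3 measured 366, 319 and 1050 CPM and Neat1 20.6, 21.7 and 52.6 CPM. The shared direction is therefore not independent of the slopes on Malat1. Over all genes 4060 rose and 3860 fell with Meg3, and 3555 and 3247 with Neat1.

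**Figure D3:**
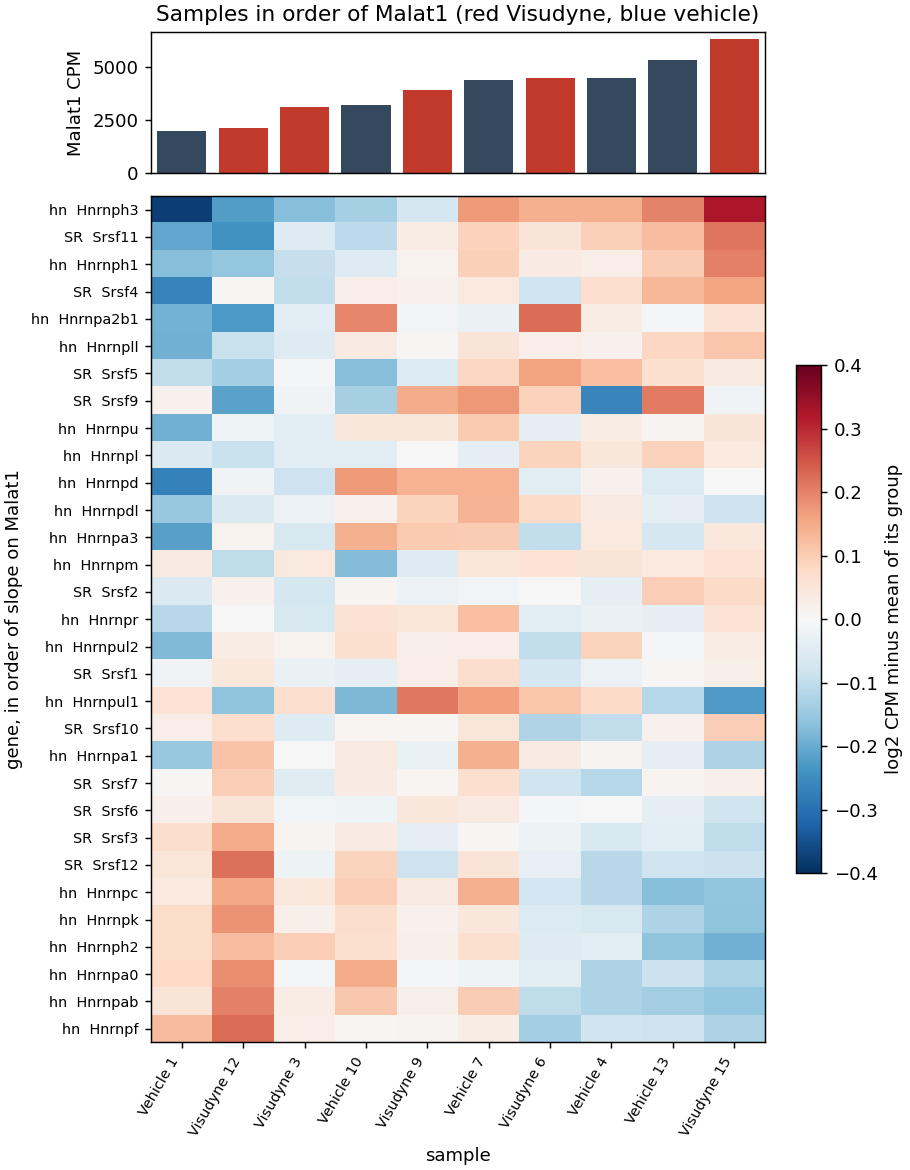
Malat1 level (CPM, bars, red Visudyne and blue vehicle) and, below, each member's log2 CPM minus the mean of its treatment group, with samples in order of Malat1 and genes in order of slope. Hnrnph3, Srsf11 and Hnrnph1 at the top turn from low to high from left to right, and genes from Srsf3 down to Hnrnpf turn from high to low.

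Ratios of 2 members within a sample do not depend on scaling. Hnrnph3 counts were 1.76, 2.78, 2.63, 2.09 and 3.01% of Hnrnpk counts in vehicle 1, 4, 7, 10 and 13, and 2.30, 3.01, 2.46, 1.98 and 3.66% in Visudyne 3, 6, 9, 12 and 15. This is a 2.08-fold range over samples, with means of 2.45 ± 0.514% in vehicle and 2.68 ± 0.663% in Visudyne samples. The ratio of Srsf11 to Srsf3 counts ran from 0.468 in Visudyne 12 to 0.765 in Visudyne 15, with 0.4996 in vehicle 1 and 0.680 in vehicle 13. Both pairs were chosen after their values were seen. By rising Malat1, mitochondrial ribosomal RNA took 21.2, 19.4, 20.8, 21.5 and 18.7% of counts in vehicle 1, 10, 7, 4 and 13. In Visudyne 12, 3, 9, 6 and 15 it took 20.0, 19.6, 17.8, 18.7 and 18.0%. How its share went with Malat1 was not tested. Among marker lists, 5 of 8 neuronal, 5 of 7 interneuron, 5 of 6 astrocyte and 5 of 6 microglial genes fell with Malat1, as did 2 of 6 of oligodendrocytes, 2 of 8 of fibroblasts and 1 of 8 of hippocampal fields. None fell of 6 of endothelium, 6 of choroid plexus, 5 of blood and 6 of neighbouring thalamus and cortex, and 1 neuronal and 1 blood marker rose. Over all genes 20.3% fell, and 34.8% of those within the members' range of abundance. The part of these measures in the members' variation was not tested.

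**Figure D4:**
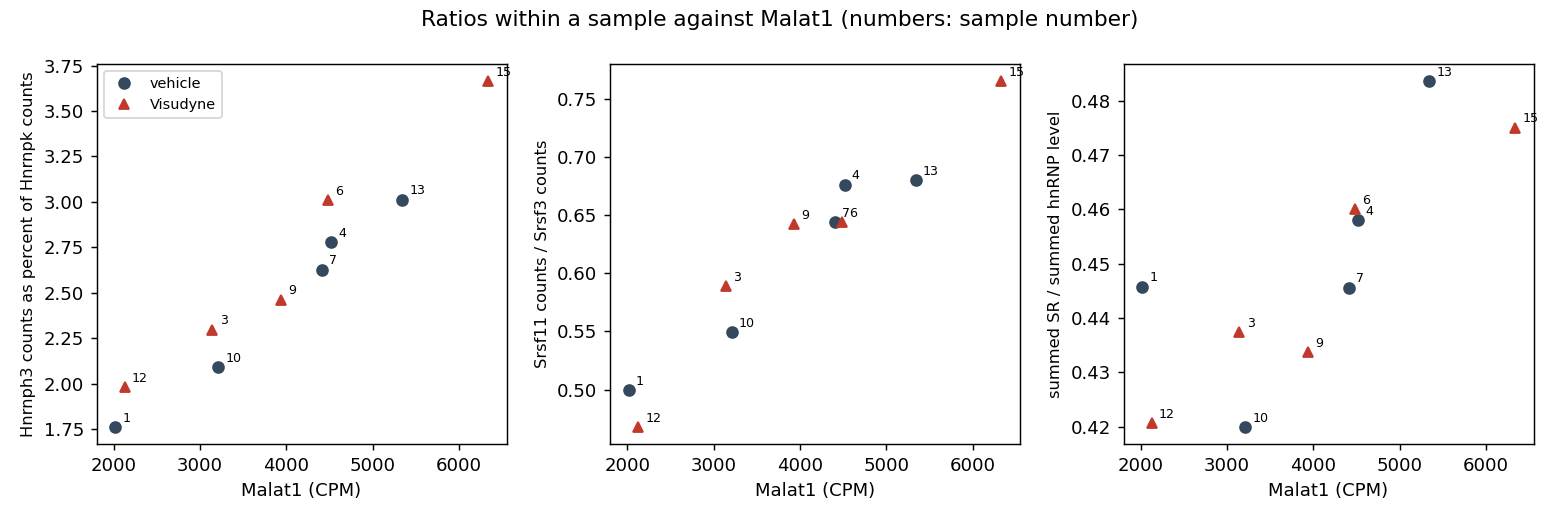
Counts of Hnrnph3 as a percentage of Hnrnpk counts (left), Srsf11 counts divided by Srsf3 counts (middle) and summed SR divided by summed hnRNP levels (right) against Malat1 CPM, 1 point per sample with its number, circles vehicle and triangles Visudyne. The left and middle ratios are lowest in vehicle 1 and Visudyne 12 and highest in Visudyne 15. The right ratio ranges from 0.420 in vehicle 10 to 0.484 in vehicle 13 with more scatter, and its highest values lie in samples of high Malat1.

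Other genes of the splicing pathway were read from 9 lists, in which edgeR called 0 genes higher and 0 lower between treatments. At an unadjusted p under 0.05 there was 1 gene in all lists, Rbfox1. Median log2 fold changes were -0.0067 for 22 relatives of the hnRNPs with other names, -0.01 for 25 SR-related proteins and -0.06 for 15 kinases and phosphatases of SR proteins. They were -0.02 for 10 genes of nuclear import and arginine methylation, -0.03 for 19 genes of U1, U2 and branch point recognition, -0.06 for 7 Sm core proteins and -0.03 for 20 genes of the tri-snRNP and catalytic core. For 26 neuronal and tissue splicing regulators the median was -0.0095 and for 16 genes of nonsense-mediated decay and the exon junction -0.01. The genes of smallest p in the lists did not pass either: the nuclear matrix protein Matr3 had a log2 fold change of -0.11 (SE 0.06). The microexon regulator Srrm4 had 0.16 (SE 0.10), Rsrc2 -0.06 (SE 0.05), the phosphatase subunit Ppp1cc -0.10 (SE 0.05) and the kinase Prpf4b -0.07 (SE 0.06).

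For the importin Tnpo1, which carries hnRNP proteins into the nucleus, the value was 0.04 (SE 0.05), and for the methyltransferase Prmt6 -0.11 (SE 0.19). The branch point factor Sf3b1 had -0.07 (SE 0.04), the U1 protein Snrnp70 -0.08 (SE 0.06), and the Sm proteins Snrpd3 -0.08 (SE 0.08) and Snrpg -0.12 (SE 0.11). Snrnp40 had -0.08 (SE 0.05) and the helicase Dhx15 -0.10 (SE 0.07). Rbfox1, a neuronal splicing regulator, measured 344 ± 15.9 and 316 ± 21.4 CPM (-0.12, SE 0.05, edgeR adjusted p = 0.9999), and Rbfox3, the antigen NeuN, -0.07 (SE 0.04). Rnps1 and Smg9, of the exon junction and of decay, had -0.08 (SE 0.04) and 0.10 (SE 0.06).

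Along Malat1, where 22.1% of all genes rose and 20.3% fell (10.9% and 34.8% of genes within the abundance range of the hnRNP and SR genes), the lists held genes of both directions except the Sm core. Of the 25 SR-related proteins 12 rose and 3 fell, and of the 15 SR kinases and phosphatases 6 rose and 4 fell. Clk1 (0.53, SE 0.06) and Clk4 (0.52, SE 0.05), kinases of SR proteins whose RNAs are known to retain introns in the nucleus, and Pnisr (0.59, SE 0.03) had, with Rbm25 (0.30, SE 0.03), the smallest p of the slope in these 2 lists. Of 7 Sm core genes 0 rose and 5 fell, Snrpd1 (-0.23, SE 0.04) and Snrpd2 (-0.18, SE 0.03) among them. Of the 22 relatives of the hnRNPs 6 rose and 5 fell, with Fubp1 at 0.38 (SE 0.04) and Ralyl at -0.48 (SE 0.06). In the other lists 1 rose and 3 fell of 10 (import and methylation), 2 and 5 of 19 (U1, U2 and branch point), 1 and 4 of 20 (tri-snRNP and catalytic core), 9 and 6 of 26 (neuronal and tissue regulators) and 2 and 6 of 16 (decay and exon junction). The examples along Malat1 were chosen after their values were seen, and whether lists differed from each other was not tested.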

How the data were processed

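Libraries of total RNA were prepared with a strand-preserving kit (labels' protocols). Per the submitters' processing notes, the authors used Salmon, FastQC and mm10. What they deposited is a matrix of estimated counts, in whole numbers, for 28871 Ensembl genes in 10 samples. The annotation release and the strand setting are not stated. GENCODE M21 supplied symbols for 28564 genes, gene types and transcript lengths.

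All 19093 genes that passed edgeR's default filter were tested with its quasi-likelihood method (edgeR 4.0.16 in R 4.3.3), using TMM factors and Benjamini-Hochberg adjustment at 0.05. CPM were computed with TMM-scaled totals. Slopes used the same model with log2 Malat1 CPM added. DESeq2 1.42.0 and limma 3.58.1 served as alternatives, beside other scalings, filters and left-out samples, and the code was checked on simulated data. There 20% of 1.25-fold and 52% of 1.5-fold changes between treatments were called, and 3.6% of calls were false. Of simulated slopes of 0.2 and 0.5, 8.2% and 61.6% were called, and 9.2% of calls were false. A member that did not pass could therefore still have a small difference or slope. The members and gene lists were chosen with earlier results of these data known. Every member is named. Values by sample are given for the 4 members of smallest p, the 3 highest and 2 lowest in level and the 2 most variable of each family. Of each gene list the 2 genes of smallest p are given, except 1 gene that is not reported here.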

Additional observations from a re-analysis of the deposited data

Results flagged for a closer look

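Single samples stood apart from the other 4 of their group in 5 of 64 sets of values examined (the 31 members and the family ratio in each treatment, Dixon's test at the 95% level). Chance alone flags about 1 in 20 sets. Hnrnpm, which shares sequence with March2, was low in vehicle 10 at 40.1 CPM, next to 46.5 CPM. Hnrnpul2 was low in Visudyne 6 at 76.2 CPM, next to 82.5 CPM. Hnrnpll was low in vehicle 1 at 42.2 CPM, next to 48.7 CPM, and vehicle 1 also had the lowest Malat1. Srsf10, an SR protein that acts as a repressor when dephosphorylated, was low in vehicle 4 at 50.6 CPM, next to 54.6 CPM. Srsf12, an SR protein of low level in these samples, was high in Visudyne 12 at 23.5 CPM, next to 19.8 CPM, and Visudyne 12 had the second lowest Malat1.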

How the results depend on the processing

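In the comparison of treatments 0 members were called higher and 0 lower under all 21 alternatives. The hnRNP median log2 fold change stayed between -0.04 and 0.00055 and the SR median between -0.07 and -0.03. Over all genes the 4 higher calls became 2 with upper-quartile factors or without mitochondrial genes, 18 with DESeq2, 13 with voom and sample quality weights, 19 with the sample number as covariate, and, both added after the data were examined, 7 with Malat1 as covariate and 1 higher and 1 lower without Visudyne 15 and vehicle 1; leaving out single samples gave 0 to 4 higher and 0 to 1 lower. For slopes on Malat1, whose alternatives were all added after the data were examined, rising and falling members numbered 10 and 4 with upper-quartile factors, 14 and 1 with library totals, 3 and 2 without the 2 samples farthest from the Malat1 median, and 5 to 9 and 4 to 8 when single samples were left out. Over all genes the falling slopes numbered 2066, 1260 and 1402 in the first 3 of these settings, the rising ones 2304 in the third, and 3134 to 4429 rose and 2252 to 3981 fell when single samples were left out. Slopes of Hnrnph3, Hnrnph1 and Srsf11 kept sign and call under all 17 alternatives. The vehicle SR to hnRNP ratio was 0.482 with the union of exons and 0.542 with the longest coding transcript as length, and 0.442 to 0.458 when single samples were left out; the difference between treatments ranged from -0.0128 to 0.0031 when single samples were left out. The family median, here taken in each vehicle sample and then averaged (the report gives the median of the genes' means, 121 and 103), moved from 119 to 107 in hnRNP genes with the longest transcript, and from 103 in SR genes to 67.5 with the union of exons and 91.8 with the longest transcript. The cause of these shifts was not tested. No paired analysis was possible because the groups share no sample number and the labels do not say which samples belong together.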
